A study of Rattus norvegicus with 8 samples.

Results

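To examine muscle regeneration and denervation genes in the injured artery wall, 10 genes were followed in mRNA sequencing of the rat carotid artery, namely the developmental myosins Myh3 and Myh8, the myogenic factors Myod1, Myog, Myf5, Myf6 and Pax7, and the receptor genes Chrna1, Chrnd and Musk. All 10 were found by symbol among the 37209 genes of the count table. They were chosen with the comparison of injured and control arteries already known, because Myh8 had one of the largest increases. Its fitted log2 fold change ranked 2 of the 14359 genes tested and that of Myh3 ranked 26. Myh8 had 0 counts in every control artery, so its fitted value depends on the prior count, a small count added in the fit. The values of the 10 genes in that comparison are therefore given as a description, without a test.

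The animals were male Sprague-Dawley (SD) rats of 400 g on average, whose age is not given in the sources used here. The intima of the left carotid artery was injured with a balloon catheter of 0.67 mm, and 4 injured arteries were taken after 2 weeks. The undamaged right carotid artery was the self-control, and 4 control arteries were sequenced. The libraries were bulk RNA of the artery, so a change in the number of cells of a type and a change in RNA per cell cannot be told apart, and how much surrounding tissue was removed is not given in the sources used here.

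Each library held between 11459632 and 16658089 counts. Levels are given as counts or as CPM, the count for each 1000000 counts of a library size adjusted with the TMM factors of edgeR, and 3 counts, taken as the smallest level a library could show, were 0.168 to 0.246 CPM. The label on extraction names a brain region, whereas the other labels name the carotid artery. The smooth muscle markers Myh11, Acta2, Tagln, Cnn1, Smtn and Lmod1 summed to between 17283 and 50154 CPM in the control arteries and between 10398 and 16382 CPM in the injured arteries, and the brain genes Neurod6, Gad2 and Slc17a7 had at most 8 counts in any library. In control artery 4, 5 sympathetic neuron markers (Th, Dbh, Phox2a, Chrna3 and Chrnb4) summed to 5179 CPM, and in injured artery 3 to 793 CPM. Injured artery 1 had 63.9 CPM, and the other 5 libraries had at most 1.80 CPM. Results that rest on control artery 4 or injured artery 3 are given with and without them.

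Skeletal muscle fibres use different myosin heavy chains through life. The embryonic chain (Myh3) and the perinatal chain (Myh8) belong to developing fibres and return when a fibre regenerates, while Myh1, Myh2, Myh4 and Myh7 serve the adult fibre types. Satellite cells, the muscle stem cells, carry Pax7, and the basic helix-loop-helix factors Myf5, Myod1, Myog and Myf6 lead them through commitment and differentiation. Myog and the acetylcholine receptor subunits Chrna1 and Chrnd are known to increase along the whole fibre when its nerve is lost. Musk, listed with Chrna1 and Chrnd as a denervation-responsive receptor gene, is the kinase that gathers those receptors under the nerve ending.

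The sequences around the transcription start of Myh8, Myh3, Myog, Chrna1 and Musk are shown because the myogenic factors act through the E-box CANNTG and because these genes cover the range of values below, from 0 counts in every control artery to a lower mean after injury. RefSeq start windows of build GRCr8, from 250 bases before to 50 bases after the start, were matched for 9 of the 10 genes, all but Myod1. The windows printed lie at chr10:52462259-52462558 on the + strand (Myh8), chr10:52268935-52269234 on the + strand (Myh3), chr13:48297226-48297525 on the + strand (Myog), chr3:78877304-78877603 on the - strand (Chrna1) and chr5:77853486-77853785 on the + strand (Musk). They are written 5′ to 3′ along the gene, and capitals mark every CANNTG.
Myh8: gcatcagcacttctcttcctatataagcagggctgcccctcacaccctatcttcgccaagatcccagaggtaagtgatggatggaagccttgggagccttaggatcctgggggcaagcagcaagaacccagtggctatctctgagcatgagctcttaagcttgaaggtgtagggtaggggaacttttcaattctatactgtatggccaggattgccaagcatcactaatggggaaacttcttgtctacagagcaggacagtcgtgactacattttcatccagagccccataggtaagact
Myh3: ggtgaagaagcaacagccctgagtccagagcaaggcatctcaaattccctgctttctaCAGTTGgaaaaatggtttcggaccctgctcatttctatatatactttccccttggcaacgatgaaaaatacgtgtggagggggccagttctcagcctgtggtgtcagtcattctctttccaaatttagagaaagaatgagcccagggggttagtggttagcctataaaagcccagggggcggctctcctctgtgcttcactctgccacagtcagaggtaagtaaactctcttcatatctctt
Myog: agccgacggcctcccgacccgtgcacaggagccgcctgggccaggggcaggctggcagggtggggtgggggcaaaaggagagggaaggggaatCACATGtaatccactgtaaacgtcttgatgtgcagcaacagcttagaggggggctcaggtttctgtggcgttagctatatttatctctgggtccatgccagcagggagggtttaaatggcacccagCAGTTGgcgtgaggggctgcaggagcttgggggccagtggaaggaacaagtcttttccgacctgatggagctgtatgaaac
Chrna1: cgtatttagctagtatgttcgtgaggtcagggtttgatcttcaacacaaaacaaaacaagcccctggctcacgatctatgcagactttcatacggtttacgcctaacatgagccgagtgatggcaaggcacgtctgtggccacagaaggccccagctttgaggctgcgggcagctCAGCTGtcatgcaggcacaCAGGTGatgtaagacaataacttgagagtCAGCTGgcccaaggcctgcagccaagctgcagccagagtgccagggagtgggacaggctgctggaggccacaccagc
Musk: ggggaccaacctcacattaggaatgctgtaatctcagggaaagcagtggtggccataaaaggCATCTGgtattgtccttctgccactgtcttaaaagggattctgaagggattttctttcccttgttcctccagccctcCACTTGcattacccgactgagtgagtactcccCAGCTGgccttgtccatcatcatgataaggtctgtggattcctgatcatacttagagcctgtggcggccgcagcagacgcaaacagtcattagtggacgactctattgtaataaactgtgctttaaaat

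The E-box reads the same on both strands and was present in 6 of the 9 windows, and 72.1% of all 33469 windows of this length held at least 1. Chrna1 had 3 E-boxes, at 75, 56 and 27 bases before the start, of which the outer pair read CAGCTG, a form bound by myogenic factors. Musk also had 3, of which the one nearest the start read CAGCTG. That form, counted within CANNTG as well, was in 2 of the 9 windows and in 15.1% of all windows. Myog had 2 E-boxes, Myh3 1 and Myh8 0 in these windows. The windows follow the annotated starts, whose positions were not checked, so the windows of Myh3 and Myh8 may not cover like regions. The MEF2 motif was searched on both strands as YTAWWWWTAR, where Y is C or T, W is A or T and R is A or G. It was in the window of Myf6, 76 bases before the start, and in 3.29% of all windows. Sites that depart from this pattern by a letter were not counted. The windows of Myog and Myh3 hold such stretches, ctatatttat and ctatatatac, which miss the pattern at the last letter. CATTCC, the core of the site of TEAD factors, was searched on both strands and was in the windows of Pax7, Chrnd and Musk and in 14.2% of all windows. These matches describe letters in a window and do not show binding.

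The developmental myosins were found almost only in the injured arteries. Myh8 had 0 counts in each of the 4 control arteries, and 98, 164, 29 and 345 counts in injured arteries 1 to 4. Myh3 had 5, 0, 2 and 1 counts in control arteries 1 to 4, and 138, 200, 36 and 411 in injured arteries 1 to 4. For both genes the groups did not overlap, injured artery 4 was the highest library and injured artery 3 the lowest of the injured.

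Myh8 was at 11.9 ± 11.7 CPM (SD, n = 4) after injury, and against a floor of 3 counts in each control library its mean was at least 54.2-fold higher, or at least 29.4-fold without injured artery 4. Myh3 was at 0.142 ± 0.156 CPM (SD, n = 4) in the controls and 14.6 ± 13.7 CPM (SD, n = 4) after injury, and its log2 fold change was 6.57 (standard error 1.10). The difference was similar without the libraries with the highest sums of sympathetic markers. Without control artery 4 and injured artery 3 the log2 fold change of Myh3 was 6.69 (standard error 0.80), and without control artery 4 alone it was 6.33. It was 5.76 without injured artery 4 and 7.49 without control artery 1.

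**Figure D1:**
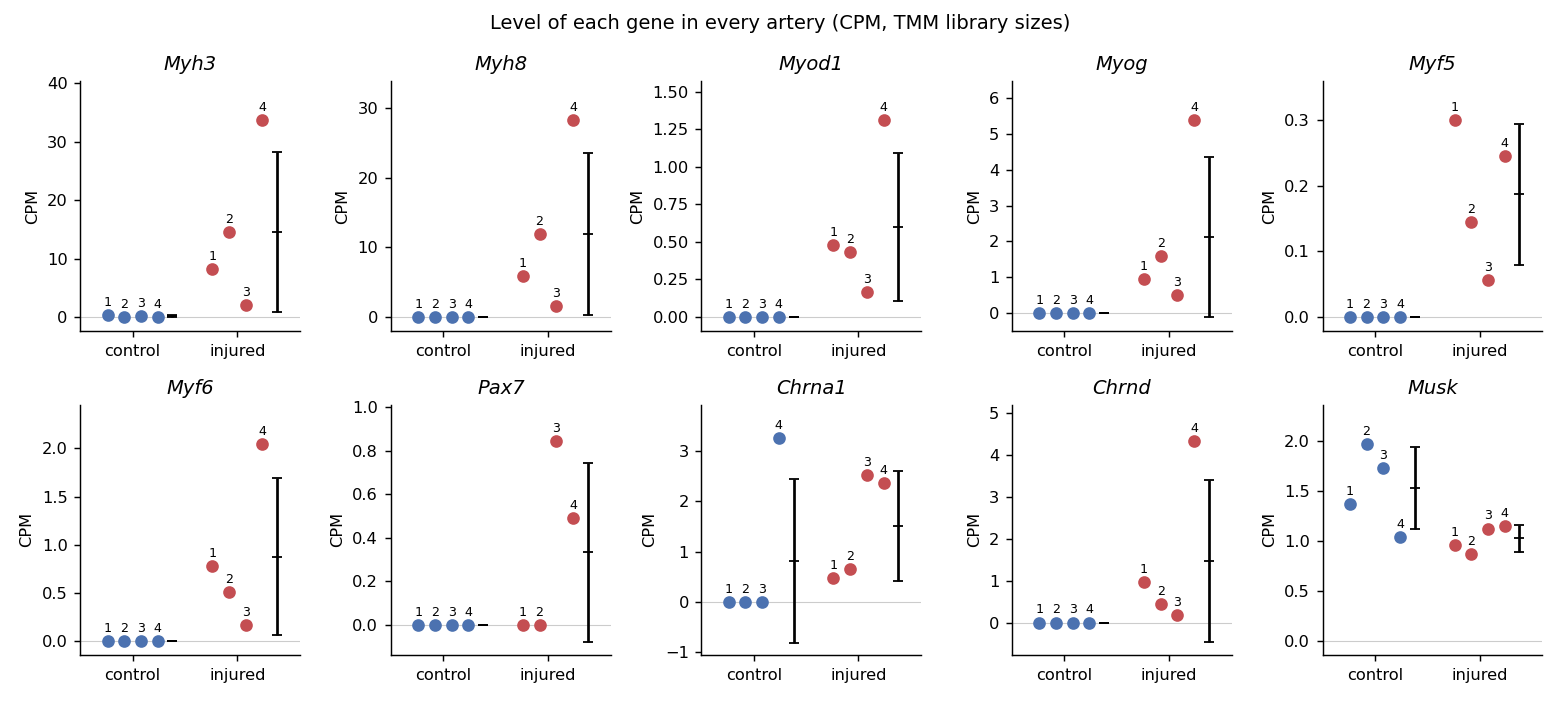
CPM of the 10 genes in each artery, with points numbered by artery (blue, control, red, injured) and the mean and SD (n = 4) as a black bar beside each group. The injured arteries lie above the controls for 7 of the 10 genes, while Chrna1 is highest in control artery 4, Pax7 is at 0 in injured arteries 1 and 2, and Musk overlaps between the groups. For Myod1, Myf5, Myf6 and Chrnd, injured artery 3 has 3 counts or fewer.

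The share of myosin counts that came from the developmental chains differed among the injured arteries. Myh1, Myh2, Myh3, Myh4, Myh7 and Myh8 together had 3308, 1952, 1598 and 4527 counts in injured arteries 1 to 4 and between 5 and 17 counts in the control arteries. Myh3 and Myh8 took 18.6% of these counts in injured artery 2 (exact 95% interval 16.9 to 20.4) and 16.7% in injured artery 4 (15.6 to 17.8). In injured artery 1 they took 7.13% (6.28 to 8.06), and in injured artery 3 they took 4.07% (3.15 to 5.16).

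Injured arteries 2 and 4 thus had a higher developmental share than injured arteries 1 and 3, and the intervals of the former did not meet those of the latter. The intervals cover at most counting error, and they can be too narrow even for that, since reads are not independent molecules. The counts are not divided by gene length, so shares are compared between arteries and not between genes. Within the developmental pair, Myh8 took 41.5%, 45.1%, 44.6% and 45.6% of the counts in injured arteries 1 to 4, with intervals that all overlapped (35.2 to 48.1 in injured artery 1 and 42.0 to 49.3 in injured artery 4). In the GRCr8 annotation Myh2, Myh1 and Myh4 are the protein-coding genes between Myh3 and Myh8 on chromosome 10, and reads from these closely related genes can be counted on the wrong member.

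**Figure D2:**
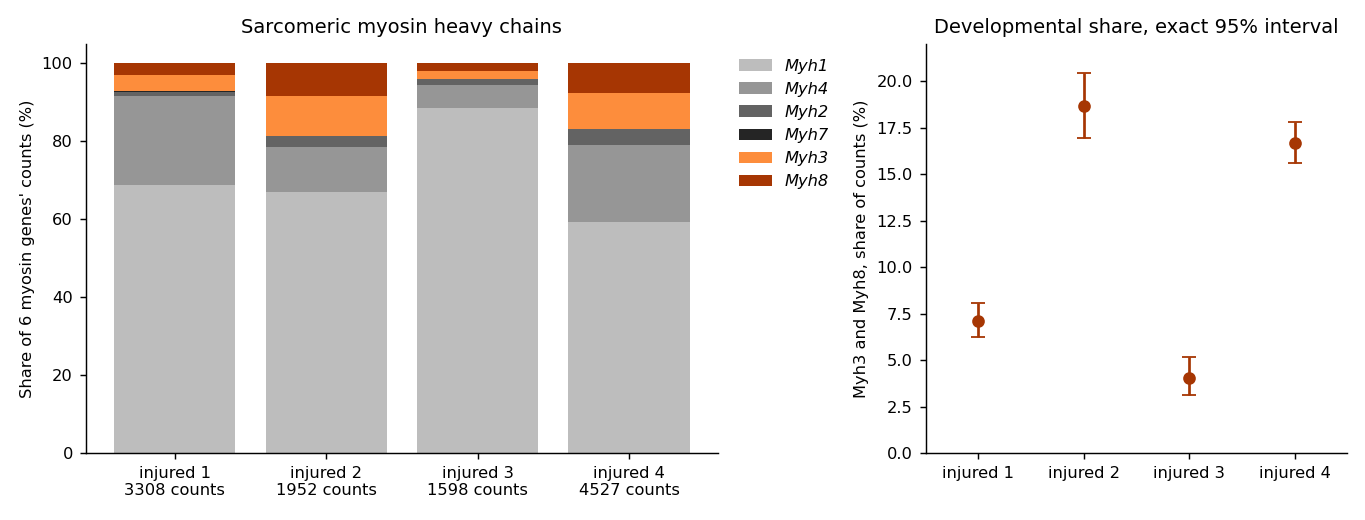
Left, share (%) of the summed counts of 6 sarcomeric myosin genes in each injured artery, with the sum below each bar. Right, the share of Myh3 and Myh8 together with its exact 95% binomial interval, at 18.6% and 16.7% in injured arteries 2 and 4 and at 7.13% and 4.07% in injured arteries 1 and 3.

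The myogenic factors were at 0 in every control artery. Myog (myogenin), which drives myoblasts into differentiation, had 16, 22, 9 and 66 counts in injured arteries 1 to 4, and its mean of 2.11 ± 2.24 CPM (SD, n = 4) was at least 9.63-fold higher than the floor in the controls, or at least 4.64-fold without injured artery 4. Myf6 (MRF4), the factor that persists in mature fibres, had 13, 7, 3 and 25 counts, at least 3.98-fold above that floor and at least 2.21-fold without injured artery 4. Myod1, which commits cells to the muscle lineage, had 8, 6, 3 and 16 counts, at least 2.72-fold above it and at least 1.64-fold without injured artery 4.

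For each of these genes every injured artery was above every control artery and injured artery 4 was the highest. In injured artery 3, Myod1 and Myf6 had 3 counts, with an exact Poisson interval of 0.619 to 8.77. That overlaps the 0 to 3.69 of a control at 0. Overlap with this interval was also found for Myod1 in injured arteries 1 and 2 and for Myf6 in injured artery 2. There the order is not beyond counting error. Myf5, the earliest of the 4 factors in development, had 5, 2, 1 and 3 counts in injured arteries 1 to 4, a level at which no fold is given. Pax7, the marker of satellite cells, had 0, 0, 15 and 6 counts in injured arteries 1 to 4. It was thus found in injured arteries 3 and 4 only, and 0 counts in the other libraries allow up to 3 counts, so its absence there cannot be stated at this depth.

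Injured artery 3, with the most Pax7, had the least Myh3, Myh8, Myod1, Myog, Myf5, Myf6 and Chrnd of the injured arteries. It also had the highest sum of the Schwann cell markers Sox10, S100b and Mbp, 419 CPM against 108 to 282 CPM in the other injured arteries and 46.3 to 346 CPM in the control arteries. Control artery 4 had sympathetic markers but 0 counts of Pax7. The part of these cell types in the Pax7 counts was not tested.

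Of the receptor genes, Chrnd was found in the injured arteries only, while Chrna1 and Musk were not. Chrnd, the delta subunit of the muscle acetylcholine receptor, had 0 counts in each control artery and 16, 6, 3 and 53 counts in injured arteries 1 to 4, a mean of 1.47 ± 1.94 CPM (SD, n = 4) that was at least 6.71-fold above the floor, or at least 2.37-fold without injured artery 4. Chrna1, the alpha subunit that holds the acetylcholine binding site, had 0, 0, 0 and 47 counts in control arteries 1 to 4 and 8, 9, 45 and 29 counts in injured arteries 1 to 4.

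The groups overlapped for Chrna1, and its highest library was a control. Its log2 fold change was 0.86 (standard error 1.41) with all arteries. Without control artery 4 every remaining control was at 0, and the mean of the injured arteries was at least 6.75-fold above the floor. All 5 sympathetic neuron markers were found in control arteries 3 and 4 and in injured arteries 1 and 3. Control artery 3, with 0 Chrna1 counts, had 1.80 CPM of them. Control artery 4 and injured artery 3, the libraries with 47 and 45 Chrna1 counts, were those with 5179 and 793 CPM of these markers.

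In injured artery 4, by contrast, 29 counts of Chrna1 came with 1.47 CPM of those markers, 2 of them at 0, and in injured artery 1, 8 counts came with 63.9 CPM. The 45 and 29 counts of injured arteries 3 and 4 had exact Poisson intervals of 32.8 to 60.2 and 19.4 to 41.6, which overlapped. The library of injured artery 4 was also the smaller, at 11459632 counts against 16658089. The part of the sympathetic markers in the Chrna1 level was not tested. With control artery 4 and injured artery 3 both left out, Chrna1 had too few counts for the edgeR fit.

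Musk had 19, 24, 25 and 15 counts in control arteries 1 to 4 and 16, 12, 20 and 14 counts in injured arteries 1 to 4. Unlike the other 9 genes it was found in every library, and it was not higher after injury. Its mean was 1.53 ± 0.407 CPM (SD, n = 4) in the controls and 1.02 ± 0.132 CPM (SD, n = 4) in the injured arteries, giving a log2 fold change of -0.57 (standard error 0.28) and overlapping groups.

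Of the 10 genes, 4 had enough counts for the edgeR fit, and 2 of these, Myh3 and Myh8, passed the criteria of the study (fold change above 2 and a false discovery rate, FDR, under 0.05), where 8.31% of all 14359 genes tested passed as higher, 2.57% as lower and 10.9% in either direction. Every injured artery was above every control artery for 7 of the 10, and for 14.2% of the genes tested. Without control artery 4 it was so for 8 of the 10 and for 22.2% of the genes tested, and without control artery 4 and injured artery 3 for 8 and for 25.9%. These shares cover only genes with enough counts for the fit, and with all arteries only 4 of the 10 were among them. For Myod1, Myf5, Myf6 and Chrnd, injured artery 3 had 3 counts or fewer, so its place above the controls is not beyond counting error. Since the genes were chosen on this comparison, nothing is read from these numbers of genes.

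The injured arteries also differed in how much mature muscle RNA they held. A list of 16 mature skeletal muscle markers, among them the fast fibre genes Actn3, Tnni2, Mylpf, Pvalb and Ryr1, summed to 870, 497, 357 and 1353 CPM in injured arteries 1 to 4 and to between 114 and 282 CPM in the control arteries. Of the 16, 14 were called higher after injury. Acta1 and Ckm were not called. Their means were 115 and 24.7 CPM in the controls and 228 and 62.4 CPM after injury. The fast fibre genes named above were at most 0.625 CPM in any control artery. Their means were 15.2 (Ryr1) to 41.6 CPM (Mylpf) after injury. Not every other marker was so low in the controls. Tnnt3, Neb, Casq1 and Myl1 had control means of 18.3, 9.17, 7.88 and 5.82 CPM, and Atp2a1 lay between 2.78 and 7.85 CPM. Tnnc2, Cacna1s, Mb and Ttn had control means of 0.809, 0.671, 0.204 and 0.107 CPM. Acta1 was thus the highest of the 16 in the controls. The control sums do not show the level of Actn3, Tnni2, Mylpf, Pvalb and Ryr1. All 16 were found in each injured artery, and 1 or 2 were at 0 in each control artery.

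Myod1, Myf6 and Chrnd placed the injured arteries in the order of this sum, 4, 1, 2 and 3 from the highest. Myh3, Myh8 and Myog placed them as 4, 2, 1 and 3. Neighbours in these orders were not always apart, and the 8 and 6 counts of Myod1 in injured arteries 1 and 2 had exact Poisson intervals of 3.45 to 15.8 and 2.20 to 13.1. Over all 10 genes, injured artery 4 was the highest of the injured for 7 and injured artery 3 the lowest for 7.

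Set against the mature muscle sum of the same artery, the myosins and Myog varied less between injured arteries than in CPM, but were not level. That sum includes Acta1 and Ckm. Per 1000 CPM of mature markers, Myod1 was between 0.471 and 0.968 CPM in the 4 injured arteries, a 2.05-fold range. The range was 3.63-fold for Myog (10.7-fold in CPM), 5.16-fold for Myh3 (16.6-fold in CPM) and 5.25-fold for Myh8 (17.3-fold in CPM), whose ratios were 6.74, 23.9, 4.56 and 20.9 in injured arteries 1 to 4. Chrna1 varied more, with a 12.9-fold range (5.28-fold in CPM), from 0.550 in injured artery 1 to 7.07 in injured artery 3. The part of the amount of mature muscle RNA in the levels of the 10 genes was not tested.

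**Figure D3:**
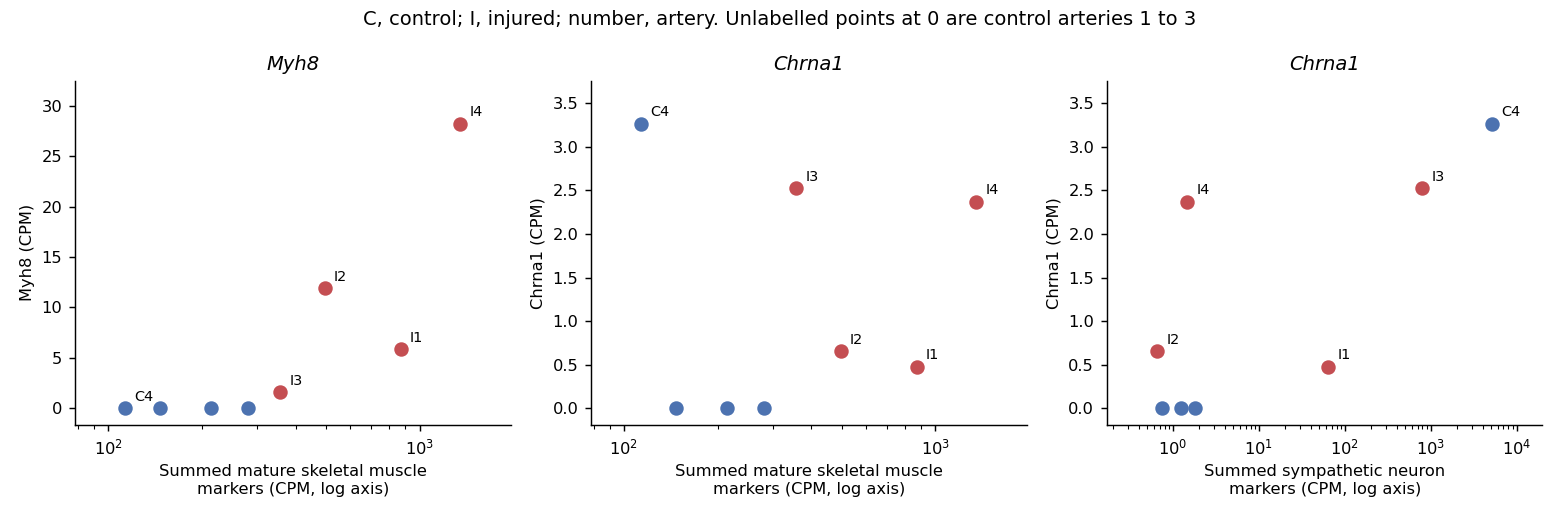
Myh8 (left) and Chrna1 (middle) against the summed CPM of 16 mature skeletal muscle markers, and Chrna1 (right) against the summed CPM of 5 sympathetic neuron markers, each point an artery (blue, control, red, injured) and the horizontal axes logarithmic. Myh8 is above 0 only in the injured arteries, which also have the highest muscle sums, whereas Chrna1 is highest in control artery 4 and injured artery 3, the libraries with the highest sympathetic sums. Injured artery 4, the next for Chrna1, has 1.47 CPM of sympathetic markers.

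To see which genes had the profile most like that of Myh8, log2 CPM was centred for each gene and compared over the 8 arteries by the root mean square difference. The nearest were Myh3 (0.55), the oxygen store of muscle Mb (0.61), the fast troponin Tnni2 (0.62), the immunoglobulin heavy chain gene Igha (0.64) and the calcium release channel Ryr1 (0.69). For Chrna1 they were Mt3 (0.35), Rab36 (0.49), Eid2 (0.50), Pak6 (0.50) and LOC690323 (0.54). Over the 4 injured arteries alone, Myh3 and LOC690323 were the only genes of these that were again among the nearest 5 of Myh8 and Chrna1.

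The other genes of the muscle programme were taken from 8 lists with 60 genes. Of these, 59 matched the count table, 49 could be tested, 9 were called higher and 3 lower after injury. That was 18.4% higher and 6.12% lower, where over all genes tested the shares were 8.31% and 2.57%. The median log2 fold change was 0.33 over the 49 genes and -0.06 over all genes. Without control artery 4, 15 of these genes were called higher, and 15 without control artery 4 and injured artery 3, where 12.3% and 12.5% of all genes were.

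Among the other sarcomeric myosins, 3 of the 5 tested rose and 1 fell. Myh1, the fast 2X chain, lay at 0.253 ± 0.142 CPM in the controls and at 133 ± 62.8 CPM after injury (SD, n = 4 each), and rose by 8.98 on the log2 scale (adjusted p = 0.000162, edgeR, with a standard error of 0.55). Myh4, the fast 2B chain, rose by 7.84 on the log2 scale (adjusted p = 0.00381, edgeR) and Myh2, the fast 2A chain, by 4.50 (adjusted p = 0.0253, edgeR). The value of Myh4 was 7.19 without injured artery 4, and that of Myh2 was 5.66 without control artery 4. Myh2 was not called when control artery 1, 2 or 3 or injured artery 2 or 4 was left out, with log2 fold changes from 3.32 to 4.65 and edgeR adjusted p-values of 0.0552 to 0.0781.

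Myh6, the alpha chain of heart muscle, was at 3.48 ± 1.12 CPM in the controls and 0.363 ± 0.319 CPM after injury (SD, n = 4 each), and fell by 3.20 on the log2 scale (adjusted p = 0.00668, edgeR), or by 4.03 without injured artery 1. Myh7b had a log2 fold change of 0.11 (edgeR adjusted p = 0.796). Myh7, the slow chain, had at most 1 count in any control artery and at most 5 in any injured artery, Myh15 had 1 count in the controls in all and 10 to 43 in each injured artery, and Myh13 was at 0 throughout. These 3 genes were below the count filter of edgeR with all arteries. DESeq2 tested Myh15 and called it higher (adjusted p = 3.5e-05, DESeq2), and edgeR did so without control artery 4 (5.64 on the log2 scale, adjusted p = 0.00843, edgeR).

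Of 4 contractile isoforms of the embryonic fibre, Mybph rose and Actc1 fell. Mybph, a myosin binding protein, was at 0.218 ± 0.127 CPM in the controls and 6.54 ± 3.46 CPM after injury (SD, n = 4 each), higher by 4.85 on the log2 scale (adjusted p = 0.00166, edgeR, with a standard error of 0.61). Actc1, the cardiac alpha actin that is also the early actin of skeletal muscle, was at 53.1 ± 29.0 CPM in the controls and 9.88 ± 6.23 CPM after injury (SD, n = 4 each), and fell by 2.43 on the log2 scale (adjusted p = 0.0297, edgeR). Actc1 was called in 3 of the 8 fits that each left out 1 artery, and not when control artery 1, 2 or 3 or injured artery 1 or 2 was left out (-2.58 to -2.04, adjusted p from 0.0504 to 0.0954, edgeR). Tnnt2, the troponin T of heart and early muscle, had a log2 fold change of 2.50 (adjusted p = 0.0883, edgeR), and Myl4, the atrial and embryonic light chain, one of 1.83 (adjusted p = 0.0725, edgeR), and neither was called by edgeR with all arteries. DESeq2 called both (adjusted p = 0.0154 and 0.0157), and so did edgeR without control artery 4 and injured artery 3. Without control artery 4 alone, which had 36 of the 49 counts of Tnnt2 in the controls, Tnnt2 was called (edgeR adjusted p = 0.00514).

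Of 8 satellite cell genes, 6 were tested and 2 rose. Fgfr4, a receptor for fibroblast growth factors in muscle precursors, had a log2 fold change of 2.33 (adjusted p = 0.0027, edgeR) and lay between 0.328 and 0.360 CPM in the controls and between 1.35 and 2.62 CPM in the injured arteries. Met, the receptor of hepatocyte growth factor, had 1.54 (adjusted p = 0.0144, edgeR). Without control artery 4, 4 of the list were called.

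Of 5 myoblast fusion genes, 4 matched and none of the 3 tested was called by edgeR. In the same fit, 1 of these 3 had an unadjusted p under 0.05, and DESeq2, which over all genes called 9.61% higher and 3.3% lower (12.9% in all), called 1 of 4, Tmem8c. Tmem8c is the older name of Mymk, the membrane activator of fusion, and had 0 counts in the controls and 3, 2, 6 and 10 in injured arteries 1 to 4, too few for the edgeR test. Of 14 partners and regulators of myogenic factors, 13 were tested by edgeR and 1 rose, the repressor Msc (musculin), by 1.89 on the log2 scale (adjusted p = 0.0106, edgeR). Smyd1, a muscle methyltransferase with 3 counts in the controls in all and 71 in the injured arteries, was below the count filter. DESeq2 called it higher (adjusted p = 0.00133, DESeq2), and so did edgeR without control artery 4 (adjusted p = 0.0111, edgeR). Tcf3, an E protein that pairs with myogenic factors (0.81, adjusted p = 0.0102, edgeR), passed the FDR with a fold below 2, and like Smyd1 was chosen for mention after its values were seen. The MEF2 genes, the other E proteins Tcf4 and Tcf12, and the inhibitors Id1, Id2 and Id3 were not called.

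At the neuromuscular junction, the other receptor subunits were not called by edgeR. Of the 2 tested, 0 had an unadjusted p under 0.05, and DESeq2 called 0 of 3. Chrnb1, the beta subunit, had a log2 fold change of 0.14 (adjusted p = 0.826, edgeR) and Chrne, the epsilon subunit of the adult receptor, one of 0.56 (adjusted p = 0.401, edgeR). Chrng, the gamma subunit of the fetal receptor, had 0 counts in every control artery and 2, 1, 0 and 18 in injured arteries 1 to 4, and was not called where it could be tested (adjusted p = 0.116, DESeq2). Injured artery 4 was the highest for Chrng, as it was for Chrnd.

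Of 8 junction assembly genes, 1 was called with all arteries, Dok7. This cytoplasmic activator of Musk was at 21.1 ± 4.00 CPM in the controls and 8.16 ± 1.64 CPM after injury (SD, n = 4 each), and fell by 1.37 on the log2 scale (adjusted p = 0.00374, edgeR, with a standard error of 0.21). Every injured artery was below every control for Dok7, at 8.91, 6.46, 7.19 and 10.1 CPM in injured arteries 1 to 4 against 16.6 to 25.6 CPM in the controls. It was called in each of the 8 fits that left out 1 artery. Colq, which anchors acetylcholinesterase at the junction, had 440 counts in control artery 4 and 5 to 14 in the other controls. Its log2 fold change was -1.24 (adjusted p = 0.57, edgeR) with all arteries, and it was called higher at 2.47 without control artery 4 (adjusted p = 0.00985, edgeR) and at 2.09 without control artery 4 and injured artery 3 (adjusted p = 0.00842, edgeR). Ache, the esterase itself, had 419 CPM in control artery 4, and its log2 fold change of -2.08 became 2.05 without that library and -0.06 without both, with no call in any of these fits. Colq and Ache are named after their values were seen. Agrn, the nerve signal that acts on Musk (0.48, adjusted p = 0.019, edgeR), and Lrp4, its receptor (0.70, adjusted p = 0.0194, edgeR), passed the FDR with a fold below 2, and were also chosen after their values were seen.

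Of 10 other genes known to respond to denervation, 8 were tested and 2 rose. Runx1, a transcription factor, rose by 2.28 on the log2 scale (adjusted p = 0.000642, edgeR, with a standard error of 0.23), and the stress gene Gadd45a had 1.20 (adjusted p = 0.026, edgeR). Gadd45a was called only without control artery 4 or injured artery 2 among the 8 fits that each left out 1 artery, and its log2 fold change was 0.90 to 1.28 in the other 6. It was 0.99, a fold below 2, without control artery 4 and injured artery 3. The ubiquitin ligases of muscle atrophy Trim63 (0.44, adjusted p = 0.616, edgeR) and Fbxo32 (-0.73, adjusted p = 0.211, edgeR) were not called. Dach2 and Eda2r were at 0 in every library.

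**Figure D4:**
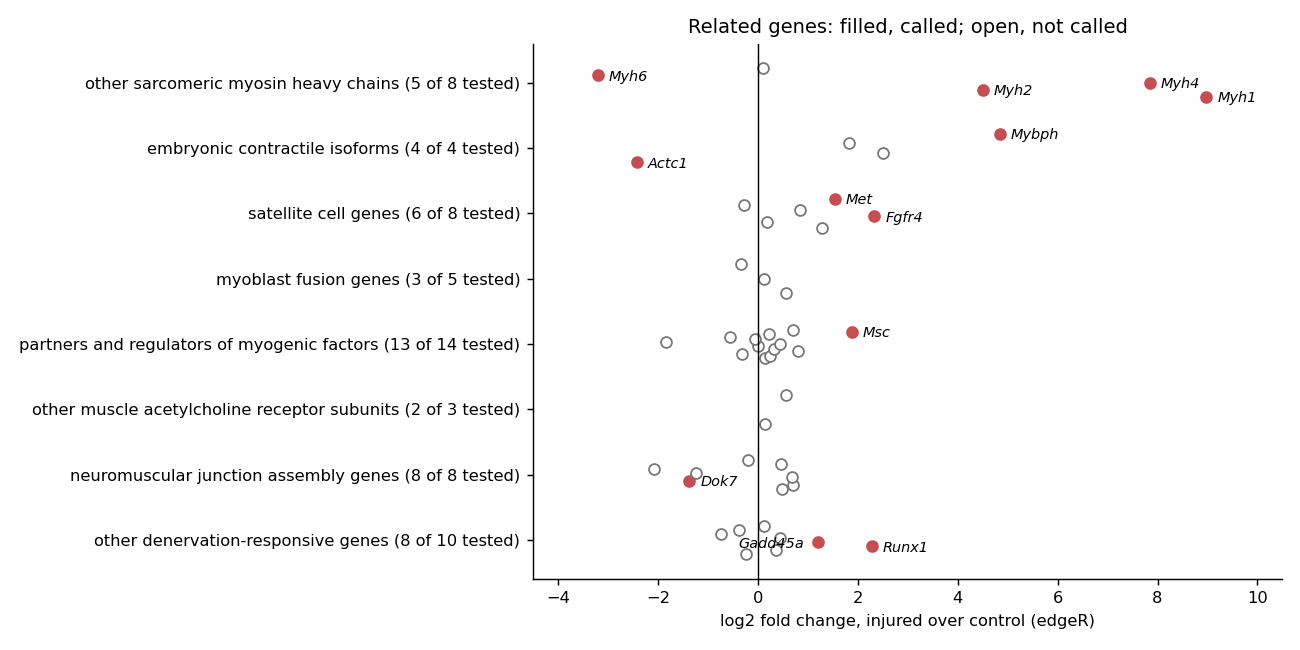
Log2 fold change of injured over control arteries for the 49 tested genes of 8 lists of the muscle programme, a point for each gene, filled where it was called. The called genes reach from Myh6 at -3.20 to Myh1 at 8.98, and no gene of the fusion and receptor subunit lists is called.

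Several of these genes are also used outside muscle, and markers of other cells moved with the injury. Of 6 macrophage markers 5 were called higher, with sums of 82.0 to 117 CPM in the controls and 332 to 471 CPM after injury, and of 5 proliferation markers 5 were, with sums of 6.41 to 11.2 and 69.8 to 103 CPM. Of 6 smooth muscle markers, 4 fell. Of the 5 heart markers 1, Ryr2, could be tested and was not called, with sums of 95.3 to 155 and 78.2 to 122 CPM. Ryr2 made up nearly all of these sums, with means of 117 CPM in the controls and 103 CPM after injury. The means of Tnni3 and Mybpc3 were at most 0.702 CPM in either group, and Nppa and Myl7 had at most 1 count in any library. The heart sums thus show Ryr2 rather than the list. Of the 4 brown adipocyte markers 3 were tested and Cidea fell, with sums of 44.3 to 199 and 28.1 to 47.3 CPM, and of the 3 Schwann cell markers none was called by edgeR with all arteries. For the heart and Schwann cell markers 0 of the genes tested by edgeR had an unadjusted p under 0.05, and DESeq2 called 0 of 3 in each list. The Schwann cell marker Sox10 was called higher without control artery 4 (3.63 on the log2 scale, adjusted p = 0.0275, edgeR), as it was without control artery 4 and injured artery 3 (3.17, adjusted p = 0.022, edgeR). Of the 5 sympathetic markers edgeR could test only Dbh and DESeq2 none, so no call is given for them. All 6 smooth muscle markers fell without control artery 4, and Cidea was not called without both arteries. The part of these cells in the calls of the lists was not tested.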

How the data were processed

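RNA of 8 carotid arteries was sequenced, and the authors deposited whole-number read counts per gene symbol for each library. The submitters' processing notes name HISAT2 2.0.4. The counting tool, genome build, annotation and strand setting are not given in the sources used here, so overlapping genes could not be separated by strand. The counts were analysed as deposited with edgeR 4.0.16 in R 4.3.3 (filterByExpr, TMM factors, quasi-likelihood test, Benjamini-Hochberg adjustment) over all genes, and a call needed an FDR under 0.05 with more than a 2-fold difference. CPM used TMM-adjusted library sizes, and log2 CPM a prior count of 2. DESeq2 1.42.0, other factors and filters, the replicate number as a block, and leaving out arteries were the alternatives. On data simulated without replicate effects, where 200 genes differed 4-fold, edgeR recovered 69% of them with 6 false calls. Its block fit recovered 37.5% with 2 false calls, and DESeq2 82.5% with 33. Nothing states whether the numbers of injured and control arteries name an animal, so p-values measure the spread between these samples.

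The 10 genes and all lists were chosen with earlier results of these data known. Named by rule were all 10 genes, every gene of the lists of myosins, embryonic isoforms and receptor subunits, up to 4 called genes of each other list, and the 5 genes nearest in profile to Myh8 and to Chrna1. The other genes of the lists that are named, most of them not called, were chosen after their values were seen. Some genes of the lists are not reported here and are left out of their counts and sums. Mymx was not matched, and the genes Mymk and Adgre1 were matched by synonyms.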

Additional observations from a re-analysis of the deposited data

Results flagged for a closer look

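In 36 sets of 4 values, each a gene or marker sum in 1 group, the highest or lowest artery was compared with the rest by Dixon's ratio, the gap to the nearest artery over the whole range. The ratio was above its critical value for 4 samples in 3 sets, where chance flags about 1 in 20, or 1.8 of 36. For 7 genes every control was at 0, so those control sets had no range and could not be flagged. The number that chance would flag is therefore below 1.8. Chrna1 in the control arteries had a ratio of 1, since control artery 4 had 47 counts and the others 0. The sympathetic neuron markers in the control arteries had a ratio of 0.9998, with 5179 CPM in control artery 4 and at most 1.80 CPM in the others. The same sum in the injured arteries had a ratio of 0.920, with 793 CPM in injured artery 3 and at most 63.9 CPM in the others. Both arteries with high sympathetic sums had the highest Chrna1 of their group. Among the injured arteries, the Poisson interval of the Chrna1 counts in artery 3 overlapped that in artery 4. The part of the sympathetic markers in the Chrna1 level was not tested.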

How the results depend on the processing

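Higher calls in the 8 related lists numbered 9, with 14 by DESeq2, 4 when at least 10 counts were required in every sample and 15 without control artery 4 and injured artery 3, an alternative chosen after seeing the data. Leaving out 1 artery gave 7 to 15 higher calls (15 without control artery 4) and 2 to 3 lower calls. Over all genes 1193 were higher, with 715 at 10 counts in every sample, 1800 without both arteries and 945 to 1817 with 1 artery left out, and 369 were lower, with 673 without both arteries and 197 to 581 with 1 left out (197 without injured artery 4, 200 without injured artery 2, 227 without control artery 2 and 581 without control artery 4). The Chrna1 log2 fold change ran from 0.44 to 7.45 in the 7 such fits that held it, and was 7.45 without control artery 4, where every control is 0 and the value depends on the prior count. DESeq2, RLE factors, library totals alone and no filter each kept 12 of the 12 called related genes. Library totals alone moved the median log2 fold change of all genes from -0.06 to 0.12 and the higher share of calls from 76.4% to 85.1%. Among the 5 genes nearest Myh8 and the 5 nearest Chrna1, 1 each was kept with the injured arteries alone. The causes were not tested.

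Injured and control arteries of a number correlated in their deviations at 0.30, 0.45, -0.52 and -0.42, and 2 of 4 injured arteries correlated best with their own number. The controls were the undamaged arteries of injured rats, but no label says that a number names a rat, so the numbers were not taken as pairs, and these values do not settle whether they are. With the replicate block, 7 related genes were called higher and 2 lower, all genes gave 953 higher and 234 lower, and the Chrna1 log2 fold change was 2.73. Actc1 (adjusted p = 0.0654), Msc (adjusted p = 0.0503) and Gadd45a (adjusted p = 0.0927) were not called by edgeR with the block. At least 10 counts in every sample left 1 of the 10 genes, Musk, and 6 of the 12 called related genes to be tested, since the others had few or 0 counts in the controls.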
